A study of Schizosaccharomyces pombe with 4 samples.

Results

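The spliceosomal small nuclear RNAs (snRNAs) of *Schizosaccharomyces pombe* were followed in total RNA of cells that lack *rrp6* and of wild-type cells. They are the 5 entries that the deposited table types as snRNA genes, *snu1*, *snu2*, *snu4*, *snu5* and *snu6*, of 11620 entries used. RNA-seq was carried out on *rrp6*Δ cells and wild-type (WT) cells, with 2 libraries per strain that the labels call biological replicates 1 and 2. The labels give no other allele, and no treatment, growth stage or mating type for either strain. The *rrp6* transcript, the check on the strain labels, had 7.38 and 8 normalized read counts in the *rrp6*Δ libraries, against 2352 and 2842 in the WT libraries. A normalized read count is here a whole number of reads times a factor of its library, and a density is that count per nt.

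Each snRNA forms a ribonucleoprotein particle that recognises or rearranges the substrates of splicing. U1 pairs with the 5′ splice site and U2 with the branch site, after which U5 joins with U4 and U6, whose pairing is unwound so that U6 can take part in catalysis. U1, U2, U4 and U5 are made by RNA polymerase II and bind the Sm ring, whereas U6 is made by RNA polymerase III and binds the Lsm ring. Rrp6 is a 3′ to 5′ exonuclease of the nuclear exosome, which degrades many non-coding RNAs and trims precursors of stable RNAs.

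The genomic sequences of U1, U2 and U5 are shown because each carries the short stretch through which the RNA acts, and that of U4 because its entry in the table turned out to lie beside the gene. All were read 5′ to 3′ from the RefSeq assembly ASM294v3 and written as DNA. U1 (chromosome II, 3020205 to 3020353, plus strand) has in capitals the stretch complementary to the 5′ splice site, and U2 (chromosome I, 959370 to 959556, minus strand) the stretch that pairs with the branch site. U5 (chromosome II, 3236867 to 3236986, plus strand) has its loop in capitals.
U1: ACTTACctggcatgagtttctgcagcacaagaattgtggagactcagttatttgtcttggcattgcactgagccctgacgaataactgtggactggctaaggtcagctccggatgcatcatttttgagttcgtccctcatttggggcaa
U2: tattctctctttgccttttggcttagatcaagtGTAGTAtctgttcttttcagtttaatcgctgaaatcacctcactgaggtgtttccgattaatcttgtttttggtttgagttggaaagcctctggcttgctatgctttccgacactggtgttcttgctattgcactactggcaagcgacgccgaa
U5: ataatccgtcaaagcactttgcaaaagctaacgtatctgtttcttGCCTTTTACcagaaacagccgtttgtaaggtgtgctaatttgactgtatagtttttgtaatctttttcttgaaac

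The capitals of U1 start at base 1 (ACTTAC), those of U2 at base 34 (GTAGTA) and those of U5 at base 46 (GCCTTTTAC). Each occurred once in its own snRNA and in none of the others. On the same strand, windows of equal length from the start of 11570 nuclear entries held ACTTAC in 4.78% of cases, GTAGTA in 4.81% and GCCTTTTAC in 0.138%. The intervals of *snu1*, *snu2* and *snu5* in the table were identical to those of RefSeq. The *snu6* entry, of 152 nt, has 8 more nt at its 5′ end than the gene of 144 nt, and it spans the 50-nt intron as well as 94 nt of exons. Every 50-nt stretch of the genomic sequence of the 5 entries and of U4, the length of a read, occurred only once in the nuclear genome. Only exact matches were counted, and stretches across the splice junction of U6 were not checked.

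The *snu4* entry did not overlap the U4 gene. RefSeq places U4 on chromosome II, 467489 to 467615, minus strand, 127 nt, and the table places *snu4* at 467233 to 467361 on the same strand, 129 nt, with 127 nt between them. The entry novelncTU_372, one of the table's set of additional non-coding transcription units, runs over 379 nt (467233 to 467611). It covers 123 of the 127 nt of U4 (96.9%) and contains the whole *snu4* entry. The sequences of the U4 gene and of the *snu4* entry are printed to show that they differ. Neither has a part in capitals.
U4: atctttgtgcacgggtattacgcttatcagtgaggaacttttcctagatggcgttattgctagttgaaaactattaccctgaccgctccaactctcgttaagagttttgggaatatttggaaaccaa
snu4 entry: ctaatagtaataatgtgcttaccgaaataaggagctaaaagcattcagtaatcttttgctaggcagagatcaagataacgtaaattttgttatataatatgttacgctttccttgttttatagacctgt

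In what follows, *snu4* values are those of an interval downstream of U4, and novelncTU_372, singled out after its position and values were seen, is given beside them.

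**Figure D1:**
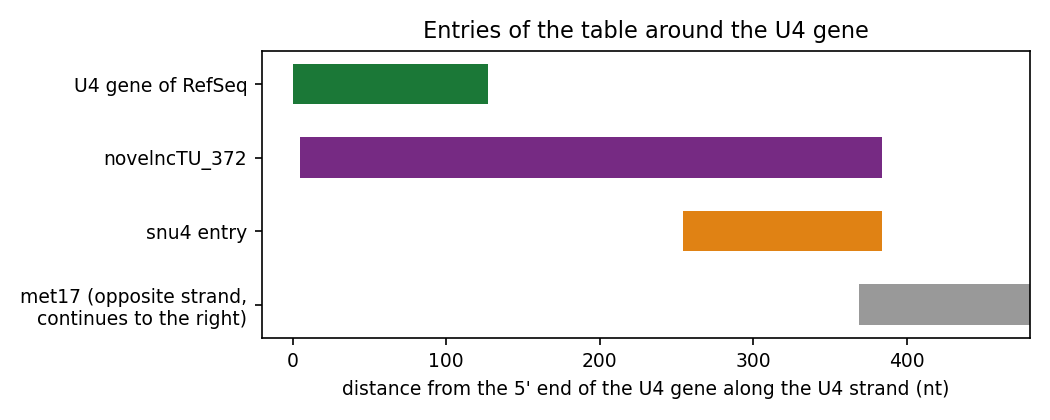
Map of the table's entries around the U4 gene, with the distance in nt from the 5′ end of U4 along its strand on the horizontal axis. The *snu4* entry (orange) starts 255 nt from the U4 start, past the end of the gene (green), whereas novelncTU_372 (purple) starts at nt 5 and runs to nt 383.

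Over all entries, the libraries held 75295117 and 64913330 reads for *rrp6*Δ and 68813840 and 82419985 for WT, in which overlapping entries repeat reads. The 5 snRNA entries took 0.351% and 0.352% of the reads in the *rrp6*Δ libraries, against 0.166% and 0.167% in the WT libraries. These shares do not depend on the library factors, and the snRNA share was higher in both *rrp6*Δ libraries. Of the 11227 transcripts that passed the filter on low counts, among them all 5 snRNA entries, 4780 were called higher in *rrp6*Δ, which is 42.6%, and 64 were called lower, which is 0.57%. A call needed an adjusted p under 0.05 in limma and more than 2-fold. All transcripts include cryptic unstable transcripts, which the study chose from these libraries for being higher in *rrp6*Δ, and this raises shares over all transcripts. Of the protein-coding genes 6.39% were called higher and 0.591% lower. Among the 4060 transcripts with a mean normalized read count of at least 1000, 4.04% were called higher and 0.468% lower.

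Of the 5 snRNA entries, 2 rose in *rrp6*Δ, *snu5* and *snu6*, and both rose about as much. *snu1* and *snu2* were also higher in *rrp6*Δ and passed the p-value, but stayed just under 2-fold. No snRNA entry was called lower by limma, edgeR or DESeq2 with either set of factors. At an unadjusted p under 0.05, 0 of 5 were lower, near the 4.48% of all transcripts tested. The 2 of 5 compare with 42.6% of all transcripts tested and with 4.04% of the abundant ones, and 4 of 5 passed an adjusted p of 0.05 upward, against 67.6% of all transcripts. Both *rrp6*Δ libraries lay above both WT libraries at 4 of the 5 entries, as at 79.0% of all transcripts.

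In RNA from whole cultures, more RNA per cell and more cells that hold it cannot be told apart. *snu6*, which encodes the RNA at the catalytic centre of the spliceosome, had 60187 and 65196 normalized read counts in the *rrp6*Δ libraries, against 15320 and 16293 in the WT libraries. The groups were far apart, and the libraries of each strain lay close together. On the log2 scale this was 1.99 (standard error, abbreviated SE, of 0.09, limma adjusted p = 1.92e-11), and the means differed 3.97-fold. *snu5*, whose RNA aligns the exons with its loop, had 4374 and 4296 normalized read counts in *rrp6*Δ, against 1166 and 949 in WT. Its groups did not overlap either, although it was the least abundant of the 4 entries that cover their genes. This amounted to a log2 fold change of 2.04 (SE 0.12, limma adjusted p = 4.53e-10), and the means differed 4.10-fold.

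*snu1* had 71592 and 75456 normalized read counts in *rrp6*Δ, against 39076 and 36722 in WT. Its log2 fold change was 0.96 (SE 0.09, adjusted p = 4.08e-08), so that it fell short of the 2-fold threshold by less than its standard error. It crossed the threshold under quantile normalization (1.01) and without WT library 1 (1.00). *snu2*, the RNA that pairs with the branch site, had 80437 and 83782 normalized read counts in *rrp6*Δ, against 45642 and 46077 in WT. Its log2 fold change was 0.84 (SE 0.08, adjusted p = 1.38e-07), and with the size factors of DESeq2 it was 0.18 with an adjusted p of 0.0706.

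The *snu4* entry held few reads, 15 and 13 in the *rrp6*Δ libraries, against 15 and 33 in the WT libraries. In normalized read counts these were 12.3 and 13 in *rrp6*Δ and 13.3 and 24.0 in WT, so that WT library 2 stood apart from the other 3 libraries. On the log2 scale the difference was −0.48 (SE 0.39, limma adjusted p = 0.275), which did not pass the test and was −0.06 without WT library 2. Quantile normalization gave −2.85 with an adjusted p of 3.98e-05, the only alternative with a call for this entry. The adjusted p was also under 0.05, with less than 2-fold, for TMM factors over all transcripts (−0.99, adjusted p = 0.0256) and without WT library 1 (−0.89, adjusted p = 0.0298). The result at this entry thus depended on the scaling and on single WT libraries, and the values say nothing of U4 itself.

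novelncTU_372, which covers U4, had 118456 and 120288 normalized read counts in *rrp6*Δ, against 92518 and 71299 in WT. The groups did not overlap, but the WT libraries differed more from each other than at *snu1*, *snu2*, *snu5* or *snu6*, in proportion to their level. Its log2 fold change was 0.56 (SE 0.10, adjusted p = 0.000143), under 2-fold and so not called. It was 0.37 without WT library 2, 0.74 without WT library 1 and −0.13 with the size factors of DESeq2, which reversed its direction. Only 0.0104% and 0.0108% of its reads in *rrp6*Δ, against 0.0143% and 0.0337% in WT, fell in the *snu4* entry, the last 129 of its 379 nt. Where the other reads lie within it is not resolved by a table of counts per entry.

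**Figure D2:**
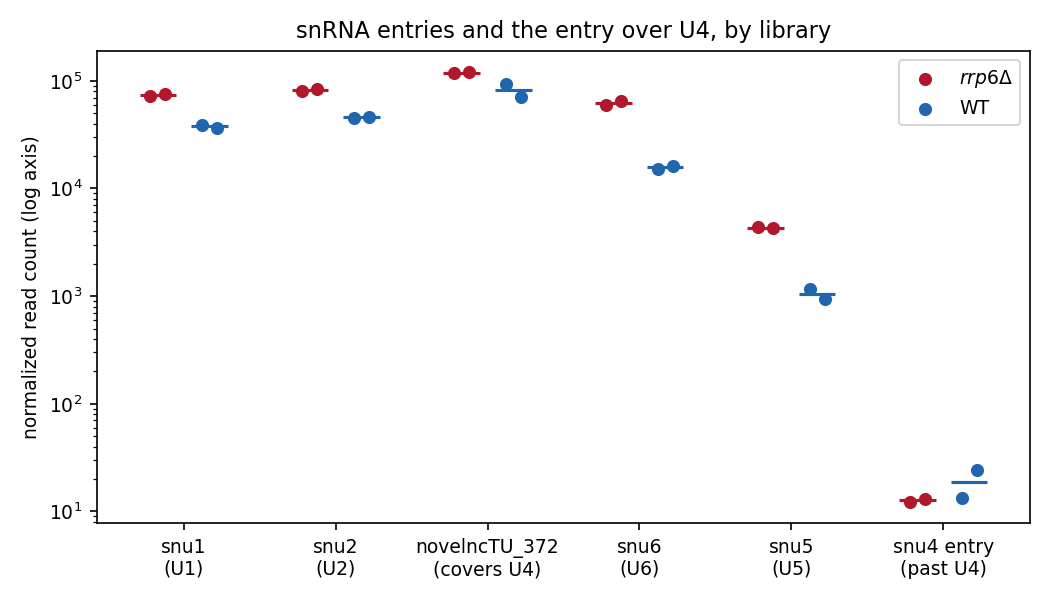
Normalized read count (log axis) of the 5 snRNA entries and of novelncTU_372 in each library, with *rrp6*Δ in red left of WT in blue and a bar at each mean of 2 libraries. *snu6* and *snu5* show the widest gap between the strains, and the *snu4* entry lies orders of magnitude below the rest, with 12.3 to 24.0 counts.

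**Figure D3:**
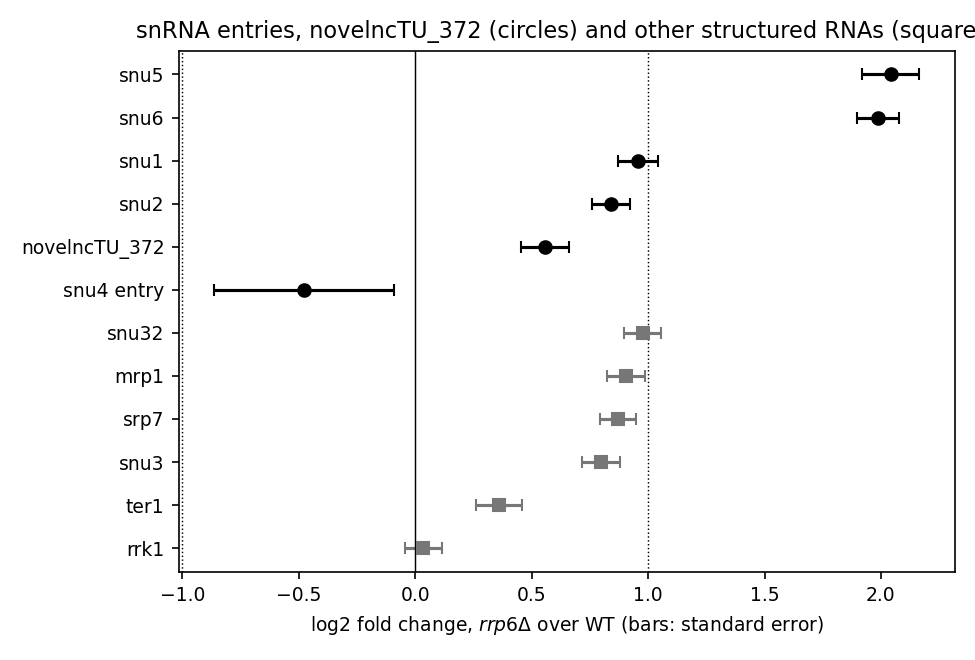
Log2 fold changes of *rrp6*Δ over WT with standard errors from limma for the snRNA entries and novelncTU_372 (circles) and for 6 other structured RNAs (squares), with dotted lines at 2-fold. *snu5* (2.04) and *snu6* (1.99) lie beyond 2-fold, while *snu1*, *snu2* and all 6 other RNAs lie between 0 and 0.98.

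Per length, *snu1* had the highest density of the 5 entries in *rrp6*Δ, 480 and 506 normalized read counts per nt, followed by *snu2* with 430 and 448, *snu6* with 396 and 429, *snu5* with 36.4 and 35.8, and the *snu4* entry with 0.095 and 0.101. The ranges of *snu1* and *snu2* did not overlap in *rrp6*Δ, whereas the lower *snu2* value lay just above the higher *snu6* value. In WT the densities were 262 and 246 for *snu1*, 244 and 246 for *snu2*, 101 and 107 for *snu6*, 9.71 and 7.91 for *snu5*, and 0.103 and 0.186 for the *snu4* entry. In WT the lower *snu1* value, 246.46, lay just above the higher *snu2* value, 246.40, a gap far smaller than the spread of *snu1*. *snu6* was thus near *snu2* in *rrp6*Δ and well below it in WT. Among all 11620 entries, *snu6* ranked at place 26 by density in both *rrp6*Δ libraries, against 91 and 93 in WT, and *snu1* ranked at 20 and 21 in *rrp6*Δ, against 35 and 36 in WT. *snu5* ranked at 249 and 260 in *rrp6*Δ, against 498 and 590 in WT. The *snu6* density averages over its intron, so that it is not that of the mature RNA.

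Ratios between snRNAs of the same library do not depend on the library factors. *snu6* stood at 0.841 and 0.864 of *snu1* in *rrp6*Δ, against 0.392 and 0.444 in WT, and at 0.748 and 0.778 of *snu2* in *rrp6*Δ, against 0.336 and 0.354 in WT. *snu5* stood at 0.0611 and 0.0569 of *snu1* in *rrp6*Δ, against 0.0298 and 0.0259 in WT, and at 0.0544 and 0.0513 of *snu2* in *rrp6*Δ, against 0.0255 and 0.0206 in WT. In all 4 ratios both *rrp6*Δ libraries lay above both WT libraries, and the mean ratios differed 2.04-fold to 2.29-fold. By contrast *snu6* over *snu5* was 13.8 and 15.2 in *rrp6*Δ, within the 13.1 and 17.2 of WT, so that these 2 RNAs did not shift against each other beyond the spread. *snu2* over *snu1* was 1.12 and 1.11 in *rrp6*Δ, against 1.17 and 1.25 in WT, slightly lower in both *rrp6*Δ libraries. Against novelncTU_372, *snu6* was 0.508 and 0.542 in *rrp6*Δ and 0.166 and 0.229 in WT. With 2 libraries per strain an exact permutation test cannot give a p below 0.333, and the ratios were put to no other test.

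**Figure D4:**
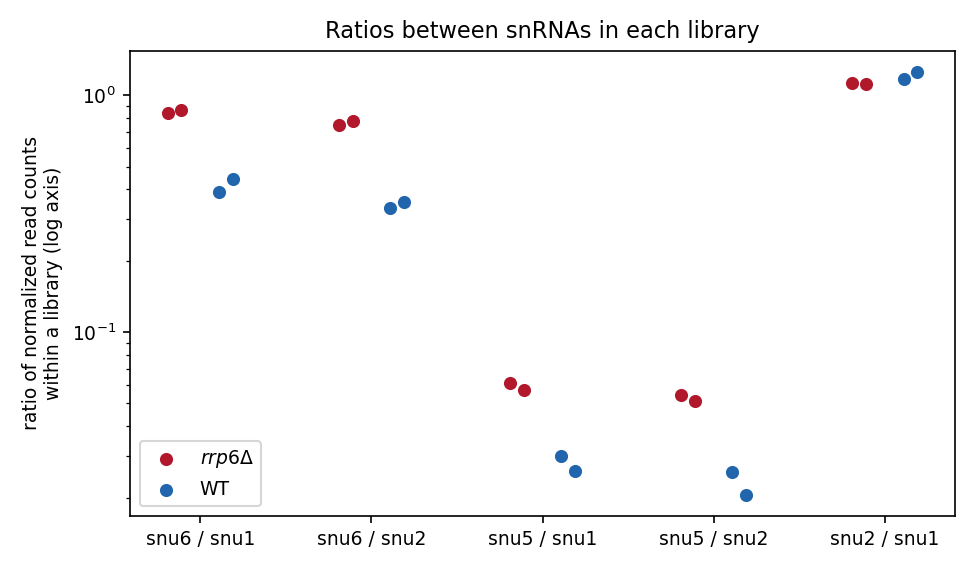
Ratios of normalized read counts between snRNAs within each library (log axis), with *rrp6*Δ in red left of WT in blue. *snu6* and *snu5* stand higher relative to *snu1* and *snu2* in both *rrp6*Δ libraries. The ratio of *snu2* to *snu1* is slightly lower in both, 1.12 and 1.11 against 1.17 and 1.25.

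As shares of the summed count of the 5 entries, *snu6* made up 27.8% and 28.5% in *rrp6*Δ, against 15.1% and 16.3% in WT, a difference of 12.4 percentage points. *snu5* made up 2.02% and 1.88% in *rrp6*Δ, against 1.15% and 0.949% in WT. *snu1* fell to 33.1% and 33.0% in *rrp6*Δ, against 38.6% and 36.7% in WT, and *snu2* made up 37.1% and 36.6% in *rrp6*Δ, against 45.1% and 46.0% in WT. The exact two-sided permutation p was 0.333 for each, the smallest it can be. With novelncTU_372 in place of the *snu4* entry, an alternative chosen after the data were seen, *snu6* still gained 9.61 points and *snu5* 0.69 points. The difference for *snu1* was then 0.69 points, in place of −4.63, and novelncTU_372 itself made up 35.4% and 34.5% in *rrp6*Δ, against 47.8% and 41.6% in WT.

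The size of each change depended on how the libraries were scaled, since the median over all transcripts, 0.66 on the log2 scale, moved by −0.067 with library totals and by up to −0.72 with quantile normalization. *snu5* and *snu6* were called higher under all 17 alternatives, with log2 fold changes of 1.37 to 2.19 for *snu5* and 1.33 to 2.04 for *snu6*. *snu1* was higher under all 17 as well, at 0.29 to 1.01, and so was *snu2*, at 0.18 to 0.87.

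**Figure D5:**
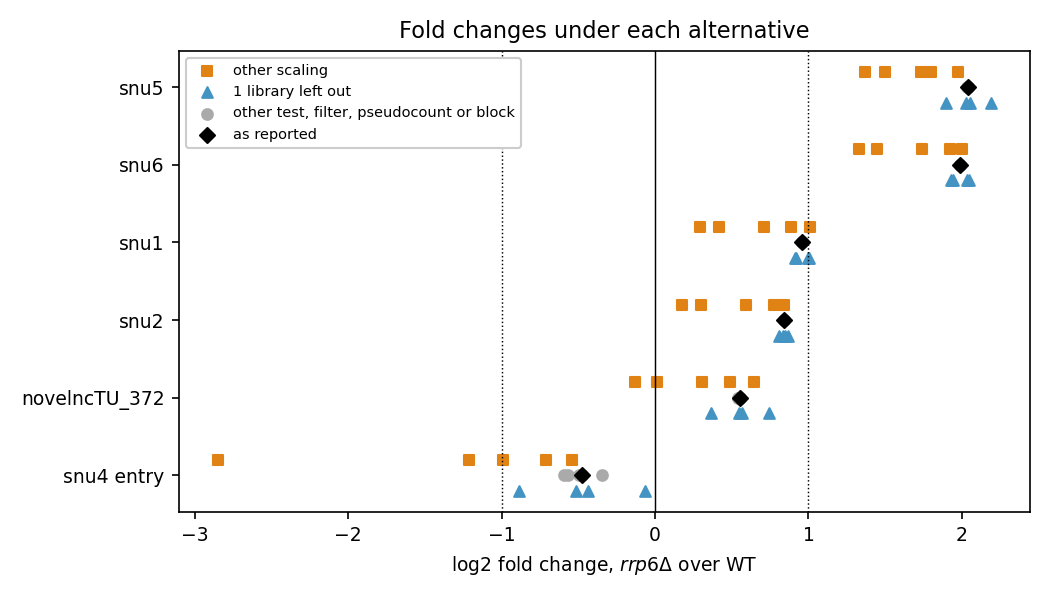
Log2 fold changes of *rrp6*Δ over WT for the snRNA entries and novelncTU_372, as reported (black) and under other scalings (orange), with 1 library left out (blue) and under other tests, filters, pseudocounts or a replicate block (grey), with dotted lines at 2-fold. *snu5* and *snu6* stay above 2-fold throughout (lowest 1.37 and 1.33), *snu1* and *snu2* stay above 0, and the *snu4* entry reaches −2.85 under quantile normalization.

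Reads outside the genes on the same strand could be counted for *snu2* and *snu5*, each of which lies within a longer non-coding transcription unit of the same strand. novelncTU_268 extends 446 nt past the 3′ end of *snu2* and 11 nt before its 5′ end, and held 24 and 10 reads outside it in *rrp6*Δ, against 3 and 6 in WT. These were 0.0245% and 0.0119% of its reads in *rrp6*Δ, against 0.00581% and 0.00949% in WT. novelncTU_182 extends 454 nt past the end of *snu5* and held 36 and 47 reads outside it in *rrp6*Δ, against 20 and 16 in WT, or 0.671% and 1.08% of its reads in *rrp6*Δ, against 1.49% and 1.21% in WT. Scaled by the library factors, the reads outside *snu2* came to 19.7 and 10 normalized read counts in *rrp6*Δ, against 2.65 and 4.37 in WT, and those outside *snu5* to 29.5 and 47.0 in *rrp6*Δ, against 17.7 and 11.7 in WT. These counts were thus higher in both *rrp6*Δ libraries, as at 79.0% of all transcripts, each from few reads. As a share of the reads of its unit, the part outside *snu5* was lower in both *rrp6*Δ libraries, and that outside *snu2* was higher. Nearly all reads outside *snu5* belong to the cryptic unstable transcript (CUT) CUT1820. It lies in that stretch and held 35 and 45 reads in *rrp6*Δ, against 19 and 16 in WT. The study chose CUTs from these libraries for being higher in *rrp6*Δ, so the higher count outside *snu5* is only a description. Reads outside an snRNA are here the difference between the reads of both entries, and novelncTU_182 begins 5 nt inside *snu5*. The fold changes of these units, 0.84 for novelncTU_268 and 2.04 for novelncTU_182, therefore repeat those of *snu2* and *snu5*.

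In all, 7 transcripts overlapped an snRNA entry or lay within 200 nt. Downstream of *snu5* by 194 nt, on its strand, CUT1820, a cryptic unstable transcript, had 28.7 and 45 normalized read counts in *rrp6*Δ, against 16.8 and 11.7 in WT (log2 fold change 1.32, SE 0.35, limma adjusted p = 0.00272). CUTs were chosen by the study from these libraries for being higher in *rrp6*Δ, so this is a description, and the call was lost without *rrp6*Δ library 2, under 2 other scalings and under quantile normalization. The antisense transcript SPBC15D4.05-antisense-1, 172 nt past *snu1* on the other strand, rose, with 162 and 162 counts in *rrp6*Δ, against 46.0 and 63.4 in WT (log2 fold change 1.57, SE 0.22, adjusted p = 9.13e-06). This change was 0.05 under quantile normalization and 0.91 with DESeq2 size factors, without a call. CUT507 lies within this antisense transcript, on its strand. It held 133 and 113 of its 198 and 162 reads in *rrp6*Δ, and 38 and 71 of its 52 and 87 in WT. The rise of the antisense transcript is therefore a description as well.

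*met17*, a gene of sulphur amino acid synthesis that overlaps the *snu4* entry by 15 nt on the other strand, fell to 5626 and 6011 normalized read counts in *rrp6*Δ, against 16135 and 15822 in WT (log2 fold change −1.46, SE 0.10, limma adjusted p = 1.15e-09). The library kit marks strand, and whether reads of *met17* were counted in the *snu4* entry was not tested. *cwf21*, which encodes a splicing factor and lies 49 nt upstream of *snu6* on the same strand, had 1425 and 1455 counts in *rrp6*Δ, against 1123 and 1508 in WT. Its groups overlapped (log2 fold change 0.15, SE 0.14, adjusted p = 0.361).

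Other structured RNAs of similar kind gave a comparison for the snRNAs. The U3 snoRNA genes *snu3* and *snu32*, which act in rRNA processing, had log2 fold changes of 0.80 (SE 0.08) and 0.98 (SE 0.08). *snu3* had 587409 and 529049 normalized read counts in *rrp6*Δ, against 331365 and 311121 in WT, without overlap. *srp7*, the RNA of the signal recognition particle, had 0.87 and *mrp1*, the RNA of RNase MRP, 0.91, each with a standard error of 0.08. *ter1*, the telomerase RNA, had 0.36 (SE 0.10), and *rrk1*, the RNA of RNase P, 0.04 (SE 0.08, adjusted p = 0.704), with overlapping groups. None of these 6 was called by limma, edgeR or DESeq2. At an unadjusted p under 0.05, 5 of 6 were higher, against 69.4% of all transcripts tested. Their median was 0.83, against 0.66 over all transcripts tested and 0.23 over those with a mean normalized read count of at least 1000. *snu32* passed 2-fold without *rrp6*Δ library 2 (1.04) and without WT library 1 (1.01), and *ter1* and *rrk1* were below 0 with the size factors of DESeq2. *snu1* (0.96) and *snu2* (0.84) lay between *snu3* and *snu32* in size of change, while *snu5* and *snu6* lay above all 6. Of the snoRNA entries 25 of 53 were called higher, 47.2% (median log2 fold change 0.92). This compares with 42.6% of all transcripts, CUTs included, and with 6.39% of protein-coding genes (median 0.26). Of the nuclear tRNA entries 131 of 132 were called higher (median 2.55), where copies of a tRNA share sequence.

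Few genes for protein partners of the snRNAs were called. Of 82 spliceosomal protein genes tested, 1 was called higher and 0 lower by limma, against 6.39% higher and 0.591% lower of all protein-coding genes, and their median log2 fold change was 0.21, against 0.26. At an unadjusted p under 0.05, 31 were higher and 2 lower, against 49.6% and 7.57% of all protein-coding genes, and edgeR and DESeq2 with the deposited factors also called 1 higher and 0 lower. The gene called was *ini1*, a subunit of the U2 particle, with 3763 and 3601 normalized read counts in *rrp6*Δ, against 1611 and 1862 in WT (log2 fold change 1.09, SE 0.12, adjusted p = 3.63e-07). Its call was lost in 5 alternatives, among them the one without WT library 1 (0.98).

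By particle, 0 of 7 genes of the Sm ring, which U1, U2, U4 and U5 bind, were called by any of these tools, and 0 of 7 passed an unadjusted p of 0.05. The largest change there was that of *smg1* (0.18, adjusted p = 0.183). Of the Lsm ring, part of which holds the end of U6, 0 of 8 were called by limma or edgeR, with 4 higher and 1 lower at an unadjusted p under 0.05 and *lsm2* at 0.40. With the size factors of DESeq2, 1 of the 8 was called lower. Of the U1 particle 0 of 9 were called (3 higher at an unadjusted p under 0.05, *luc7* 0.58), of the proteins of U4/U6 and U5 0 of 14 (5 higher, *prp4* 0.72), and of the Prp19 complex and catalytic factors 0 of 31 (14 higher, *cwf11* 0.57). edgeR and DESeq2 called none of these 3 groups either.

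Among 12 genes of snRNA maturation, 1 was called higher and 0 lower by limma, edgeR and DESeq2 with the deposited factors, and 0 were lower at an unadjusted p under 0.05. A single call is near the 6.39% of all protein-coding genes called higher. This was *mpn1*, the homolog of the human exonuclease that trims the tail of U6, with 719 and 792 normalized read counts in *rrp6*Δ, against 210 and 272 in WT. Both *rrp6*Δ libraries lay far above both WT libraries (log2 fold change 1.66, SE 0.16, limma adjusted p = 1.35e-07). Under quantile normalization it was 0.91 and with DESeq2 size factors 0.99, below 2-fold in both. The other 11 genes were not called, and 5 of the 12 were higher at an unadjusted p under 0.05, against 49.6% of all protein-coding genes, with a list median of 0.31.

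The protein-coding genes nearest the mean profile of the 5 entries over the 4 libraries, the *snu4* entry included, were sought. The search covered 2993 named genes with a mean count of at least 1000 and used the distance between centred log2 profiles. That mean is the profile of no single snRNA, since the entries changed by 0.96, 0.84, −0.48, 2.04 and 1.99. The nearest genes were *mde10*, which encodes a metallopeptidase of the ADAM family, *rsd1*, which encodes an RNA-binding protein, and *cld1*, which encodes a cardiolipin phospholipase. Their distances were 0.0341, 0.0547 and 0.0829 in log2 units, and their log2 fold changes 1.09, 1.08 and 1.01. *mde10* had 1839 and 1972 normalized read counts in *rrp6*Δ, against 864 and 928 in WT. With 4 libraries in 2 strains, such likeness describes little more than the size of the change.

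The mating type of the strains is not given in the labels. Of 7 markers of M cells, 2 were called higher in *rrp6*Δ by limma and edgeR and 1 by DESeq2, against 6.39% of all protein-coding genes by limma. At an unadjusted p under 0.05, 6 were higher, against 49.6% of all protein-coding genes. The genes called by limma were the pheromone genes *mfm3* (log2 fold change 2.37, SE 0.22, and 0.77 without a call under quantile normalization) and *mfm1* (1.41, SE 0.50, with 10.7 and 16 counts in *rrp6*Δ, against 2.65 and 7.29 in WT). The call for *mfm1* was lost in 10 of 16 alternatives, among them those without *rrp6*Δ library 1, *rrp6*Δ library 2 or WT library 1. Of 3 markers of P cells 0 were called by limma, edgeR or DESeq2. At an unadjusted p under 0.05, 2 were higher (*map2* 0.92), against the same 49.6%. The part of these markers in the snRNA changes was not tested. The lengths of the RNAs also differ, 120 nt for *snu5* and 94 nt for spliced U6, against 149 nt for *snu1* and 187 nt for *snu2*, and the part of recovery of short RNAs in the differences between them was not tested.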

How the data were processed

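By the study's methods, total RNA was extracted with hot phenol, ERCC spike-in RNA was added, rRNA was depleted, and stranded libraries were sequenced in pairs of 50 nt and mapped with TopHat 2.0.6. The paragraph on these data gives no genome release and no counting tool. The signal values that the authors deposited are normalized read counts and densities per nt. In each of the 4 libraries 100% of the counts were whole reads times a library factor, within 1e-06, and by the methods ERCC signals served for the normalization of densities. Of 21852 entries, 10204 pieces of coding sequence and 28 duplicated pseudogene entries were left out. In ASM294v3, 5116 of 5119 coding sequences (99.9%) opened with ATG at the table's coordinates.

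Values were log2-transformed after adding 0.729, the lowest nonzero value, and tested with limma 3.58.1 (trend) in R 4.3.3. filterByExpr of edgeR 4.0.16 (minimum count 10) kept 11227 transcripts, over which p-values were adjusted by Benjamini-Hochberg. Fold changes on this scale understate those of low entries. Alternatives were TMM factors, library totals, quantile normalization, DESeq2 1.42.0, the edgeR quasi-likelihood test on the recovered reads, other filters, pseudocounts and thresholds, no trend, a replicate block, and each library left out. Replicates of neither strain agreed within sampling noise (chi-square over its degrees of freedom was 28.6 in *rrp6*Δ and 111 in WT). The fit was tested on simulated data. The members, lists and naming rule were chosen with earlier results of these data known. Named were all snRNAs, *rrp6*, the 6 structured RNAs, transcripts within 200 nt, and the 3 genes nearest the mean profile. Per list, at most 3 called genes were named, or else the largest change. novelncTU_372 was chosen also for its overlap with U4. Of 83 listed spliceosomal genes, 1 is a synonym of another. The sequence of U6 is not reported here.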

Additional observations from a re-analysis of the deposited data

How the results depend on the processing

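With 2 libraries per strain the SD rests on 1 degree of freedom per strain. The limma p-values combine the spread between these libraries at an entry with the spread pooled over all transcripts tested. Without the trend, the limma adjusted p was 0.00042 for *snu6*, 0.00059 for *snu5*, 0.0028 for *snu1*, 0.0038 for *snu2* and 0.22 for the *snu4* entry. For the snRNA calls, the alternatives with another result were these. *snu1* passed 2-fold under quantile normalization (1.01), and leaving out single libraries gave 0.91 to 1.00. The *snu4* entry was called lower under quantile normalization (−2.85), ranged from −0.89 to −0.06 with single libraries left out, and was not tested at a minimum count of 50. With no fold threshold 4 snRNA entries were higher, and under quantile normalization 1 was lower. Leaving out single libraries gave 0.81 to 0.87 for *snu2*, 1.89 to 2.19 for *snu5* and 1.93 to 2.04 for *snu6*. The count of spliceosomal protein genes called higher was 0 under both TMM scalings, quantile normalization and DESeq2 size factors, 0 to 1 with single libraries left out, and 27 with no fold threshold. The count called lower was 1 with DESeq2 size factors and 2 with no fold threshold. With novelncTU_372 in place of the *snu4* entry, the difference in share was 0.69 points for *snu1*, −1.22 for *snu2*, 0.69 for *snu5* and 9.61 for *snu6*, and shares of the density gave 1.18 for *snu5*. Within 500 nt there were 15 neighbours in place of 7.

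Signs turned for some named transcripts, mostly near 0. With TMM factors over all transcripts the values were −0.40 for *cwf21*, −0.51 for *rrk1*, −0.18 for *ter1*, −0.36 for *smg1* and −0.14 for *lsm2*, and with TMM factors from protein-coding genes −0.10 for *cwf21*, −0.21 for *rrk1* and −0.062 for *smg1*. Library totals gave −0.032 for *rrk1*. Quantile normalization gave −0.70 for CUT1820, −0.21 for *cwf21*, −0.10 for *smg1*, −1.15 for *mfm1* and −0.66 for *map2*. DESeq2 size factors gave −0.13 for novelncTU_372, −0.52 for *cwf21*, −0.62 for *rrk1*, −0.30 for *ter1*, −0.48 for *smg1*, −0.26 for *lsm2*, −0.083 for *luc7* and −0.094 for *cwf11*. With single libraries left out *cwf21* ranged from −0.067 to 0.36. Calls also changed without *rrp6*Δ library 2 for *snu32* (1.04) and *cld1* (0.96), without WT library 1 for *snu32* (1.01) and *cld1* (0.92), and without WT library 2 for *map2* (1.09). The cause of these differences was not tested.

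The replicate numbers do not pair the libraries by the labels, and the deviations of same-numbered libraries correlated at 0.0112. With a replicate block the log2 fold changes were the same, 0.96 for *snu1*, 0.84 for *snu2*, −0.48 for the *snu4* entry, 2.04 for *snu5* and 1.99 for *snu6*, with 2 snRNA entries called higher, 0 lower, and 1 spliceosomal protein gene higher and 0 lower.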
